A study of Mus musculus with 8 samples.

Results

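The Schlafen genes measured here were Slfn1, Slfn2, Slfn3 and Slfn4, members of a mouse family that lies as 1 cluster on chromosome 11. Of the 22626 probe sets of the array other than controls, 5 carry 1 or more of the symbols Slfn1 to Slfn5 in the platform annotation. A probe set is a group of short probes read together as 1 signal. Slfn1 and Slfn2 have 1 probe set each, Slfn3 and Slfn4 have 1 each of their own, and a further probe set is shared by Slfn3 and Slfn4 as the annotation joins both symbols. Slfn5 is named by 0 probe sets and was not analysed here. The family was chosen because Slfn4 was known to be high in the tumors and low in the parental cells. The values of Slfn4 and of the probe set shared with Slfn3 in that comparison are therefore a description with no test, whereas Slfn1, Slfn2 and Slfn3 were included by name.

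Tumors came from the spleens of 3 nude mice (tumors 1, 2 and 3), which had received FL5.12 cells by vein. FL5.12 is a mouse pro-B cell line that depends on interleukin-3. The cells carried Bfl-1DC and p53DD as stable transfections, so the tumor cells and the parental cells share both, and the parental cells are the injected line itself. The labels give growth in medium with WEHI-3B supernatant, a source of interleukin-3, for all 8 samples and leave unclear if the tumor cells spent time in culture. The sources used here do not give the age of the mice or say whether the transfected line was 1 clone. Each tumor and the parental line were measured on 2 arrays, which gave 8 arrays, and the labels do not say whether duplicate arrays came from separate RNA or, for the parental line, separate cultures. P-values that rest on duplicates measure only the spread between these arrays, which may be technical. Nude mice lack a normal thymus but keep myeloid and natural killer cells, and a tumor from a spleen can hold cells of the host.

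Schlafen proteins share a core domain found in mammals and are grouped by length. Slfn1 and Slfn2 are the short members, Slfn3 and Slfn4 are of intermediate length, and Slfn5, Slfn8, Slfn9 and Slfn14 are long and carry a helicase-like part. The family was first described in mouse thymocytes, where forced expression of Slfn1 slows growth, and several members are induced by type I interferon. In the mouse, loss of Slfn2 function makes T cells and monocytes leave quiescence, Slfn4 is known from monocytes, macrophages and other myeloid cells, and Slfn3 has been studied in T cells and in the gut epithelium.

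Slfn1 to Slfn4 are shown by their upstream sequence because the 4 promoters are related, while the genes differ in their values between tumors and parental cells. The sequences are the 250 bases before the transcript start, from RefSeq on GRCm38.p6, all on the + strand, 5′ to 3′. They lie at chr11:83174936-83175185 for Slfn4, chr11:83116570-83116819 for Slfn1, chr11:83064862-83065111 for Slfn2 and chr11:83191080-83191329 for Slfn3. Capitals mark ACTTCCTGG, the longest run of letters (9) found in all 4.
Slfn4: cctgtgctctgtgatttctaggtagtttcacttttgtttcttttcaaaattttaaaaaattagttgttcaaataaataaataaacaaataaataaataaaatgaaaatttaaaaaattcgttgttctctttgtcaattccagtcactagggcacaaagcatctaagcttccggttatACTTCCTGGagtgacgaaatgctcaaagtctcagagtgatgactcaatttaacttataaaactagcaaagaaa
Slfn1: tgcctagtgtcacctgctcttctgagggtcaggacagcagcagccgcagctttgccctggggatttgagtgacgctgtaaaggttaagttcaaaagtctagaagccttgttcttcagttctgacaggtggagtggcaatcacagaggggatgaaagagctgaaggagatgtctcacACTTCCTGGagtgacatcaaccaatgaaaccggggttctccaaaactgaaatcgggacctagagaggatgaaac
Slfn2: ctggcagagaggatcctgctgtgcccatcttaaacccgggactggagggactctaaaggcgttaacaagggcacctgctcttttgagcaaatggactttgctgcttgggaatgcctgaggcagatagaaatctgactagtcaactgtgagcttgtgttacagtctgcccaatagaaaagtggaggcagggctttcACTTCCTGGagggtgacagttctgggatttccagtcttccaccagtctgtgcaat
Slfn3: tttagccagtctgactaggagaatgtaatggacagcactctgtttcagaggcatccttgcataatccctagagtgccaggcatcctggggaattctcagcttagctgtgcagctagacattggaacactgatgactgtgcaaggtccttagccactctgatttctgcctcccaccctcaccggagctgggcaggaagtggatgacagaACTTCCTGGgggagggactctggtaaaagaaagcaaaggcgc

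The shared run was found by comparing these sequences with each other, and on the opposite strand it holds the GGAA core of sites that ETS family transcription factors bind. It began 73 bases before the transcript start in Slfn4, 74 in Slfn1, 55 in Slfn2 and 42 in Slfn3. On either strand it occurs in 0.7% of 32851 promoter windows when the 250 upstream bases are searched. The 4 genes are related copies, so they do not count as 4 independent occurrences. Slfn4 and Slfn1 shared the longest run of any pair, 15 bases (ACTTCCTGGAGTGAC). The promoters of Slfn5, Slfn8, Slfn9 and Slfn14 do not hold the 9-letter run within the 300 bases of the RefSeq windows, each of which adds 50 bases after the start. The core of the interferon-stimulated response element, GAAA followed by any 2 bases and a second GAAA, was searched on both strands in the same windows and matched in Slfn5, Slfn8 and Slfn9, and in 3.44% of all windows. It matched in 0 of the windows of Slfn1, Slfn2, Slfn3 and Slfn4. TTCNNNGAA, the site form bound by STAT factors, which reads the same on both strands, matched in 0 of the 8 Schlafen windows and in 8.3% of all windows. A match or its lack describes these letters in this window only.

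Slfn4 was high in every tumor and near the low end of the scale in the parental cells. Its own probe set gave signals of 836 and 1234 for tumor 1, 1226 and 1427 for tumor 2 and 1317 and 1367 for tumor 3, against 16.2 and 4.21 in the parental cells. All 6 tumor arrays lay far above both parental arrays, with no overlap. The mean was 1234 ± 173 (SD, n = 3 tumors) in tumors and 10.2 ± 8.51 (SD, n = 2 arrays) in parental cells. In the tumors the signal stood at percentiles 94.3 to 97.0 of its array, and in the parental cells at percentiles 21.2 to 40.3.

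The change of Slfn4 was 5.59 ± 0.25 (SE) on the scale of log2(signal + 16), the fifth largest among 14893 probe sets tested. In that comparison 0.698% of probe sets were called at an adjusted p under 0.05, 74 higher and 30 lower (67 and 44 after centring each array on its median, which moved the median of all probe sets by -0.11), and all 6 tumor arrays lay above both parental arrays for 9.35%. Since Slfn4 was chosen from this contrast, neither share says anything further about it. Its parental signal on the second array was below the 40th percentile of that array, so no exact fold is given, and the size of the change depends on the pseudocount, the constant added before the logarithm. The change was 7.01 with a pseudocount of 1 and 4.12 with 64.

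The probe set shared by Slfn3 and Slfn4 was also higher in every tumor. Its signals were 139 and 224 for tumor 1, 242 and 289 for tumor 2 and 243 and 224 for tumor 3, against 15.2 and 5.84 in the parental cells. The groups again did not overlap. The mean was 227 ± 42.4 (SD, n = 3) in tumors and 10.5 ± 6.61 (SD, n = 2) in parental cells, and the change was 3.19 ± 0.24 (SE). Over the 8 arrays its log2(signal + 16) correlated with that of the Slfn4 probe set at 0.994, and over the 6 tumor arrays at 0.951, where the points share their arrays and, in pairs, their tumor. Which of the 2 transcripts gave this signal cannot be read from the shared probe set.

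**Figure D1:**
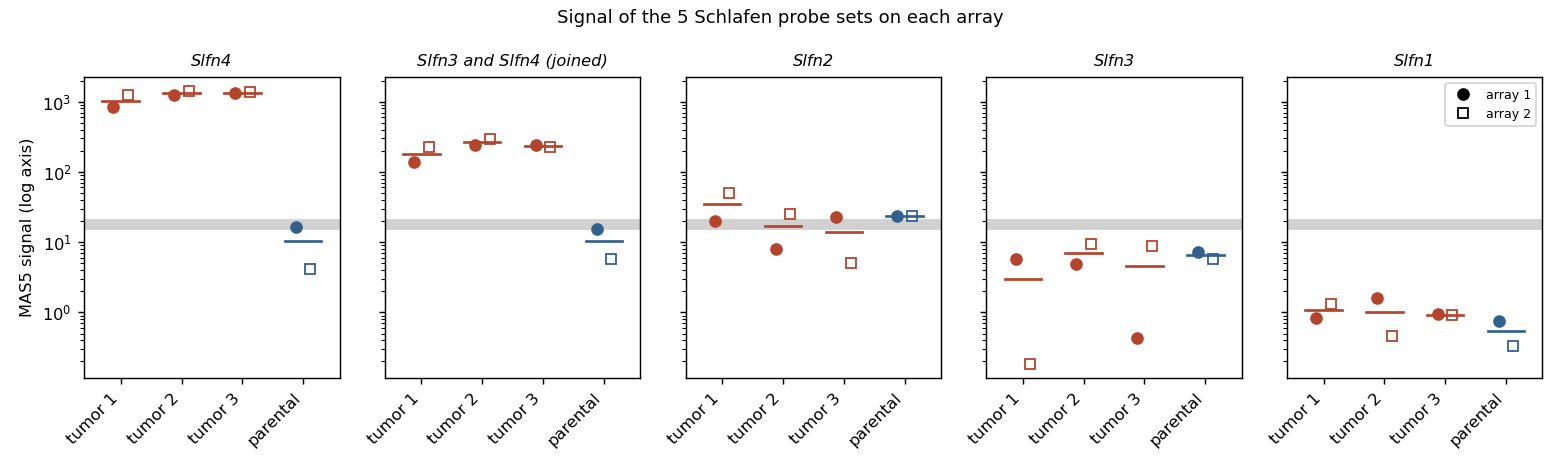
MAS5 signal on a log axis for each of the 5 Schlafen probe sets in tumors 1, 2 and 3 and in parental cells; filled circles are array 1, open squares array 2, lines the mean of the 2, and the grey band the range of the 40th percentile over the 8 arrays. Slfn4 (836 to 1427 in tumors) and the shared probe set (139 to 289) stand above the band in the tumors, while Slfn3 and Slfn1 lie below it on every array.

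Slfn3, the gene next to Slfn4, had low signal on its own probe set in every sample. It gave 5.83 and 0.183 for tumor 1, 4.88 and 9.29 for tumor 2 and 0.437 and 8.72 for tumor 3, against 7.29 and 5.79 in the parental cells. The tumor arrays spread on both sides of the parental ones. All 8 values were below the 40th percentile of their array (15.6 to 20.7), so the probe set was outside the test. The mean was 4.89 ± 2.06 (SD, n = 3) in tumors and 6.54 ± 1.06 (SD, n = 2) in parental cells. With no filter on low values its change was -0.13, with a 95% interval from -0.46 to 0.20 and an adjusted p by limma of 0.715, in a fit where 0.0972% of 22626 probe sets were called. The pseudocount holds such changes near 0 at this signal, and the interval covers the spread of these signals only.

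Slfn1, the short member that slows growth when forced in thymocytes, stood lower still. Its signals were 0.838 and 1.30 for tumor 1, 1.58 and 0.468 for tumor 2 and 0.948 and 0.910 for tumor 3, against 0.759 and 0.334 in the parental cells. Of the tumor arrays 5 were above both parental arrays, but these values lay at percentiles 1.18 to 10.3 of the tumor arrays and 1.37 to 4.64 of the parental arrays. None of the 8 arrays reached the 40th percentile, so Slfn1 was not tested. With no filter its change was 0.04 (95% interval from -0.21 to 0.29, adjusted p by limma 0.899), and -0.07 after median centring. At such signal a difference in RNA level was not detectable, and the values do not show that Slfn1 or Slfn3 was absent.

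Slfn2, the short member known for quiescence in T cells and monocytes, exceeded the 40th percentile on 6 of 8 arrays and was tested. Its signals were 19.9 and 49.7 for tumor 1, 8.05 and 25.4 for tumor 2 and 23.1 and 5.05 for tumor 3, against 23.3 and 23.4 in the parental cells. The tumor arrays lay on both sides of the parental values, 2 above and 4 below. The mean was 21.9 ± 11.3 (SD, n = 3) in tumors and 23.3 ± 0.0821 (SD, n = 2) in parental cells. The change was -0.16 ± 0.25 (SE), with a 95% interval from -0.75 to 0.44, an unadjusted p of 0.549 and an adjusted p by limma of 0.809. The upper end of that interval lies far below the change of Slfn4 (5.59). In each tumor against the parental cells Slfn2 had changes of 0.30, -0.32 and -0.46 in tumors 1, 2 and 3, each ± 0.41 (SE). None of these passed (adjusted p by limma 0.753, 0.856 and 0.689), in comparisons that share the parental arrays and in which 2.92%, 1.28% and 2.14% of probe sets were called.

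Of the 5 probe sets, 3 passed the filter on low values, and the 2 of these that carry Slfn4 had 6 tumor arrays above it, against 1 parental array for Slfn4 itself and 0 for the shared probe set. Slfn2 exceeded it in both kinds of sample. The order of the sources for Slfn4 was tumor 3 (mean signal 1342), tumor 2 (1327), tumor 1 (1035) and parental cells (10.2). Tumor 1 was the lowest of the tumors on the first and on the second arrays, and the F test over the 3 tumors did not pass (adjusted p by limma 0.804). By the same test 1.26% of probe sets differed among tumors. Tumor 2 minus tumor 1 was 0.38 with a 95% interval from -0.27 to 1.02, tumor 3 minus tumor 1 was 0.40 (-0.25 to 1.04) and tumor 3 minus tumor 2 was 0.02 (-0.63 to 0.67), all in log2(signal + 16). Against the parental cells the change of Slfn4 was 5.34, 5.71 and 5.73 in tumors 1, 2 and 3, and that of the shared probe set 2.89, 3.43 and 3.26.

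The shared probe set and Slfn2 did not pass the F test among tumors either, with adjusted p by limma of 0.694 and 0.713. For the shared probe set the widest difference was that of tumor 2 minus tumor 1, at 0.54 (-0.09 to 1.17). For Slfn2 it was tumor 3 minus tumor 1, at -0.76 (-1.70 to 0.18). The duplicates of Slfn2 lay far apart, and the second array was 2.49 times the first in tumor 1, 3.16 times in tumor 2 and 0.218 times in tumor 3.

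Slfn8, a long Schlafen gene outside the set of Slfn1 to Slfn5, has 1 probe set, and the annotation names none for Slfn9, Slfn10-ps or Slfn14. Its signals were 17.0 and 13.9 for tumor 1, 23.9 and 37.5 for tumor 2 and 23.3 and 14.6 for tumor 3, against 31.8 and 23.9 in the parental cells. The change was -0.24 ± 0.21 (SE), with a 95% interval from -0.75 to 0.27 and an adjusted p by limma of 0.635.

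On chromosome 11 the order of the genes in the RefSeq table runs Slfn5, Slfn9, Slfn8, Slfn10-ps, Slfn2, Slfn1, Slfn4, Slfn3, Slfn14. Slfn4 thus lies between Slfn1 and Slfn3, whose own probe sets stayed at the low end. Of the 10 nearest measured genes outside the cluster, 0 were called by limma, where 0.698% of all probe sets were. Their median change was 0.20 against 0.008 for all probe sets tested, and 1 had an unadjusted p under 0.05. Counts at that unadjusted limit, here and below, are given without the share of all probe sets that met it, so they only describe. The limit is loose, as Ltbr, a gene outside these lists, had an unadjusted p by limma of 0.0496 and an adjusted p of 0.32. On the near side of Slfn5, Nle1 had a change of -0.04, Rad51d, a gene of DNA repair by recombination, 0.31, Rffl 0.02, the DNA ligase gene Lig3 0.15 and Zfp830 0.02. On the side of Slfn14, Ap2b1, an adaptor of clathrin coats, had a change of 0.18.

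Beyond Ap2b1 lie chemokine genes, of which Ccl9 had a change of 1.58 ± 0.60 (SE, adjusted p by limma 0.285), Ccl6 of 1.11 ± 0.84 (0.569), Ccl3 of 0.61 ± 0.77 (0.753) and Ccl4 of 0.22 ± 0.16 (0.548). The signal of Ccl9 was 2212 and 5276 for tumor 1, 1030.1 and 2553 for tumor 2 and 778 and 1770 for tumor 3, against 328 and 1143 in the parental cells. It was higher on the second array in every source, and the groups overlapped. With the replicate number of the array as a block, Ccl9 was called higher (adjusted p by limma 0.00132), 1 of the 10 neighbours, where 7.4% of all probe sets were called higher. Chromosome 11 as a whole had a median change of 0.016 over 766 genes tested, and genes elsewhere had 0.023 over 7769.

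**Figure D2:**
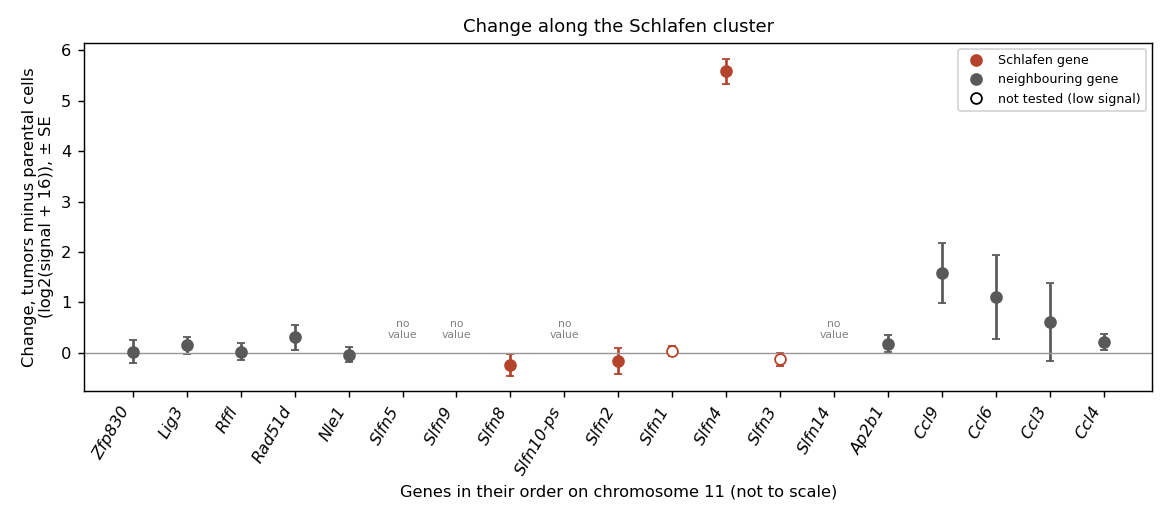
Change in tumors minus parental cells, in log2(signal + 16) ± SE, for the Schlafen genes (red) and the nearest measured genes on either side (grey), in their order on chromosome 11 and not to scale; open points were not tested because of low signal, and genes without a point have no probe set of their own. Slfn4 (5.59) stands apart from Slfn8 (-0.24), Slfn2 (-0.16), Slfn1 (0.04) and Slfn3 (-0.13).

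Genes of the interferon response, of which several Schlafen genes are part, had changes of at most 1.53. Slfn4 was chosen for its change (5.59), so setting it beside this list is a description with no test. Of 36 listed genes, 32 had a probe set of their own and 24 were tested. By limma 0 of the 24 were called, where 0.698% of all probe sets were, 8 had an unadjusted p under 0.05 and 21 had a change above 0, with a median of 0.34 (0.52 without tumor 1) against 0.008 for all probe sets tested, of which 51.1% were above 0. Ifi47, an interferon-induced GTPase, had a change of 1.32 ± 0.23 (SE, adjusted p 0.0854), and Ifitm3, which restricts viral entry, of 1.18 ± 0.25 (0.118). Usp18, which takes ISG15 off proteins, had a change of 1.53 ± 0.34 (0.124), and the nucleic acid sensor gene Zbp1 of 0.66 ± 0.16 (0.137). Ifit1, Ifit3, Mx2, Ifih1 and Cxcl10 were at or below the 40th percentile on all 8 arrays.

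The summed signal of the interferon response list was 7494 to 9176 in the tumors and 4136 to 5133 in the parental cells. Ifitm3 alone gave 4708 and 4876 for tumor 1, 3750 and 4375 for tumor 2 and 4279 and 4605 for tumor 3, against 2547 and 1469 in the parental cells, so that sum rests largely on 1 gene. With the replicate number as a block, in a fit of all 8 arrays whose spread is that between duplicates, 7 members were called higher and 1 lower, where 13.1% of all probe sets were called, 7.4% higher and 5.71% lower. The 7 were Usp18, Oas1a, Oas2, Ifitm3, Bst2, Trim30a and Ifi47, and the 1 that was lower was Ifit2, at -1.53. The same 8 arrays without the block gave 2 higher and 1 lower, where 3.28% of all probe sets were called, 2.18% higher and 1.11% lower.

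Of the genes that carry the interferon signal from the receptor, 11 were tested and 10 had a change above 0, with a median of 0.31 (0.17 without tumor 1, 0.11 without the first and 0.54 without the second parental array). Socs3, a feedback inhibitor of cytokine signalling that also answers to interleukin-3, fell by 1.20 on its probe set of highest mean (adjusted p by limma 0.0362). In the same comparison 0.201% of all probe sets were called lower. Each of the 5 fits without 1 sample lost that call (adjusted p 0.0752 to 0.155). The receptor kinase genes Jak1 and Tyk2 had changes of 0.81 ± 0.15 (SE, 0.0958) and 0.55 ± 0.15 (0.165), and Irf9, a DNA-binding partner of the STAT factors, of 0.40 ± 0.19 (0.38). With the replicate block Jak1 and Tyk2 were called higher and Socs3 lower, where 7.4% of all probe sets were called higher and 5.71% lower. In the 8 arrays without the block Jak1 was called higher (adjusted p by limma 0.0316), where 2.18% of all probe sets were. Tyk2 and Socs3 were not called there (0.0871 and 0.128). Another probe set of Socs3 had a change of -0.67 in the comparison of tumor means and was not called (adjusted p by limma 0.229).

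The list of cell cycle brake and quiescence genes, a role known for Slfn1 and Slfn2 in mouse lymphocytes, also holds drivers of the G1 phase. Those are the cyclin genes Ccnd1, Ccnd2 and Ccnd3 and the kinase genes Cdk4 and Cdk6, so its median mixes opposed functions. The list gave 0 calls by limma among 21 tested (3 at an unadjusted p under 0.05), where 0.698% of all probe sets were called. Its median was -0.07 (-0.13 without tumor 2 and -0.01 without the second parental array). With the replicate block 1 of the 21, Cdk6, was called lower (adjusted p by limma 0.0481), where 5.71% of all probe sets were. The lowest p-values were those of Cdk4, a kinase of the G1 phase (-0.46 ± 0.17 SE, adjusted p by limma 0.264), the retinoblastoma gene Rb1 (-0.46 ± 0.18, 0.285), Cdk6 (-0.47 ± 0.18, 0.291) and the growth inhibitor gene Tsc1 (-0.32 ± 0.17, 0.405). Proliferation genes gave 0 calls among 15 tested, with 0 at an unadjusted p under 0.05 and a median of -0.26 (0.02 without the first parental array). Mki67, a marker of cycling cells, had a change of -0.45 ± 0.24 (SE, adjusted p 0.425). The summed signal of this list was 11112 to 17234 in the tumors and 14580 to 19838 in the parental cells.

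Several markers of myeloid cells, in which Slfn4 is known to be expressed, were higher in the same tumors. Of 11 neutrophil markers tested 2 rose, of 5 eosinophil markers 2 and of 9 macrophage and monocyte markers 4, where 0.497% of all probe sets rose. Their medians were 1.92, 2.05 and 2.24. On the first arrays alone the neutrophil median was 0.99 and the macrophage and monocyte median 1.36, and on the second arrays alone 3.08 and 3.03, while Slfn4 had changes of 5.12 and 6.07. These lists hold genes already known to be high in these tumors, so their counts are not independent evidence. Camp among the neutrophil markers, Il5ra and Ccr3 among the eosinophil markers and Marco, C1qa, C1qc and Cybb among the macrophage and monocyte markers were at or below the 40th percentile on all 8 arrays. The summed signal of the neutrophil list was 4179 to 10593 in the tumors and 334 to 842 in the parental cells. That of the eosinophil list was 3707 to 8266 in the tumors and 40.2 to 45.5 in the parental cells, and that of the macrophage and monocyte list 2490.2 to 6057 in the tumors and 269 to 1109 in the parental cells. With the replicate block 6, 5 and 7 markers were called higher, where 7.4% of all probe sets were, and in the 8 arrays without the block 2, 3 and 2, where 2.18% were. The calls of Mpo, Epx and Lgals3 held whichever 1 sample was left out and in both of these fits. That of Lyz2 (adjusted p by limma 0.00105) held whichever 1 sample was left out but was lost in the 8 arrays without the block (0.213). The calls of Cd14 and Ngp were lost there too (0.17 and 0.0571), while those of Prg2 and Ccr2 held (0.00131 and 0.000116). On the first arrays alone the calls of Lyz2, Cd14, Ngp, Prg2 and Ccr2 were all lost. Those of Prg2, Ccr2 and Cd14 needed both parental arrays (adjusted p by limma without 1 of them up to 0.155, 0.126 and 0.156), and that of Ngp was lost without tumor 1, tumor 3 or either parental array (up to 0.187). In bulk RNA a larger share of cells of a type and more RNA per cell cannot be told apart, and the part of myeloid cells in the level of Slfn4 was not tested.

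The duplicate arrays of the tumors lay close together for Slfn4 and far apart for several of these markers. The second array over the first gave a ratio of 1.48, 1.16 and 1.04 for Slfn4 in tumors 1, 2 and 3, and of 1.61, 1.20 and 0.925 for the probe set shared with Slfn3. For Lyz2, the lysozyme of macrophages and neutrophils, the ratios were 19.8, 4.69 and 5.48, and for Cd14, an endotoxin co-receptor of monocytes, 16.6, 5.51 and 6.99. Ngp, a granule protein of maturing neutrophils, gave 8.78, 11.4 and 3.04.

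Epx, the peroxidase of eosinophils, gave ratios of 1.41, 0.891 and 1.33, Mpo, the myeloperoxidase of neutrophil and monocyte precursors, 0.876, 0.979 and 2.18, and Cd3g, which encodes CD3 gamma of T cells, 1.06, 1.57 and 1.30. Lgals3, a lectin abundant in macrophages, gave 1.35, 1.45 and 1.37, and the monocyte chemokine receptor gene Ccr2 2.25, 1.20 and 1.16. Prg2, the major basic protein of eosinophils, gave 4.22, 2.51 and 1.06. The ratios of Slfn4 lay within the range of those of Mpo and overlapped in range with those of Epx, Cd3g, Ccr2 and Prg2. Those of Lgals3 lay within the range of Slfn4. The ratios of Slfn4 lay below every ratio of Lyz2, Cd14 and Ngp, and this difference was not tested.

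**Figure D3:**
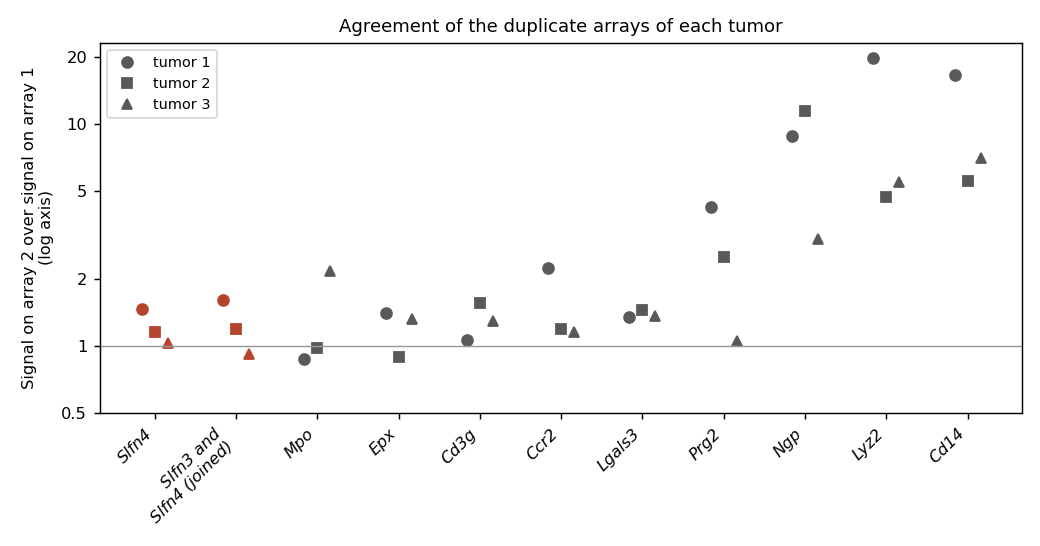
Signal on array 2 over signal on array 1, on a log axis, in tumor 1 (circles), tumor 2 (squares) and tumor 3 (triangles) for the probe sets of Slfn4 (red) and for markers of neutrophils, eosinophils, macrophages and T cells (grey). Slfn4 stays between 1.04 and 1.48 and Lgals3 between 1.35 and 1.45, while Lyz2 runs from 4.69 to 19.8 and Cd14 from 5.51 to 16.6.

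Of 4 T cell markers tested, Cd3g rose by 4.46 (adjusted p by limma 0.00112, and 0.0561 without the second parental array), 1 of the 4, where 0.497% of all probe sets rose. Cd3d, another CD3 chain, had a change of 4.21 ± 0.71 (SE, adjusted p 0.0729, and 5.84e-05 with the replicate block), with signals of 82.0 to 732 in the tumors and 1.57 to 2.20 in the parental cells. The signalling genes Lat and Zap70 had changes of -0.39 ± 0.27 (0.545) and -0.38 ± 0.41 (0.699), and Cd3e, Cd247, Cd4, Cd8b1, Cd2 and Thy1 were at or below the 40th percentile on all 8 arrays. The summed T cell list was 1054 to 2770.4 in the tumors and 304 to 412 in the parental cells. By limma 0 members were called in the lists of NK cells (2 tested), mature B cells (3), dendritic cells (2), erythroid cells (5), megakaryocytes and platelets (4), endothelium (2), stroma (2) and mast cells and basophils (3), and 1 member had an unadjusted p under 0.05 in each of the NK, mature B, dendritic, megakaryocyte and stroma lists, 2 in the erythroid list and 0 in the other two, where 0.698% of all probe sets were called. With the replicate block, where 13.1% were called, Nkg7, Cd72, Bst2 and Pf4 of these lists were higher and Gzmb, Ighm, Klf1 and Gp9 lower. The medians of these lists in that order were -1.0, 0.01, 0.61, 0.28, 0.22, 0.07, 0.73 and 0.07, and with 2 to 5 members each they moved with single samples. Leaving out 1 sample took the mast cell and basophil median from -0.87 (without tumor 1) to 2.31 (without the second parental array), that of NK cells from -1.71 (tumor 3) to -0.55 (second parental array) and that of mature B cells from -0.22 (first parental array) to 0.25 (second parental array). Those of dendritic cells ran from 0.30 (second parental array) to 0.92 (first parental array), of erythroid cells from 0.02 (tumor 3) to 0.58 (tumor 1) and of megakaryocytes from 0.10 (tumor 2) to 0.35 (tumor 1). Those of endothelium ran from -0.12 (first parental array) to 0.26 (second parental array) and of stroma from 0.46 (tumor 3) to 0.96 (tumor 2). The summed mast cell and basophil list stood apart in tumor 1, at 5474 and 8527, against 76.6 and 278 for tumor 2, 70.8 and 106 for tumor 3 and 40.8 and 849 in the parental cells. Slfn4, at 836 and 1234 in tumor 1, was lowest there among the tumors on each array number, and a relation between these values was not tested.

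Markers of the pro-B cells that the line is labelled as were few in both kinds of sample. Cd79b, which encodes the Ig-beta partner of the B cell receptor, had signals of 222 and 273 for tumor 1, 209 and 269 for tumor 2 and 255 and 298 for tumor 3, against 109 and 77.6 in the parental cells. All 6 tumor arrays lay above both parental arrays, as they did for 9.35% of all probe sets, and Cd79b rose by 1.31 (adjusted p by limma 0.0414), a call lost whichever 1 sample was left out (0.103 to 0.156). Cd79b was 1 of 4 pro-B markers tested of 12 with a probe set. The others were Cd79a (0.97 ± 0.25 SE, adjusted p by limma 0.156), Igll1 (0.45 ± 0.23, 0.402) and Vpreb3 (-0.14 ± 0.16, 0.734). With the replicate block Cd79a and Cd79b were called higher, where 7.4% of all probe sets were. The same 2 were called higher in the 8 arrays without the block, where 2.18% were. Vpreb1, Ebf1, Rag1, Rag2, Dntt and Blnk, which include the recombinase genes and a surrogate light chain that define the stage, were at or below the 40th percentile on all 8 arrays. Transcription factors of myeloid cells gave 0 calls by limma among 7 tested (2 at an unadjusted p under 0.05), where 0.698% of all probe sets were called. Of the 7, 5 had a change above 0. Their median was 0.25 (0.48 without the second parental array). Cebpa and Klf4 were at or below the 40th percentile on all 8 arrays. The gene of PU.1, Spi1, an ETS family factor, had a change of 1.09 ± 0.23 (SE, adjusted p by limma 0.116) and signals of 308 and 588 for tumor 1, 234 and 373 for tumor 2 and 196 and 355 for tumor 3, against 134 and 152 in the parental cells. All 6 tumor arrays of Spi1 were above the 2 parental ones, a pattern of 9.35% of all probe sets. Gata2 had a change of 0.97 ± 0.24 (SE, adjusted p by limma 0.141) and Cebpd of 0.66 ± 0.29 (0.347). Nfe2 had a change of -0.31 ± 0.15 (SE, adjusted p by limma 0.387) and Gata1 of -0.82 ± 0.57 (0.541). With the replicate block 3 of the 7 (Spi1, Gata2 and Cebpd) were called higher, where 7.4% of all probe sets were.

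**Figure D4:**
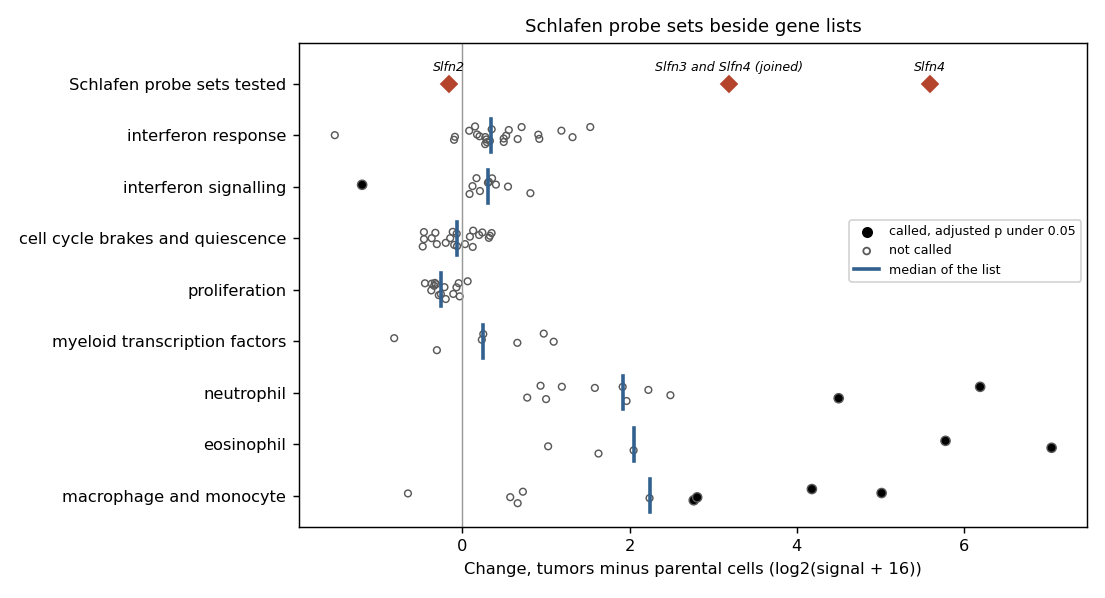
Change in tumors minus parental cells, in log2(signal + 16), for the 3 Schlafen probe sets tested (red) and for the tested genes of 8 lists; filled points were called at an adjusted p under 0.05 and blue bars are medians. The median of the interferon response list was 0.34. Slfn4 (5.59) was chosen for its change in this comparison, so its place beside the lists is a description with no test.

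The genes whose pattern over the 8 arrays was most like that of Slfn4, by Pearson correlation of log2(signal + 16), were Nlrx1 (0.991), Epx (0.990), Slc7a9 (0.990), Mpo (0.988), Prss16 (0.986), Cd3g (0.986), Hspa5 (0.986) and Ndrg1 (0.985). They were drawn from 4765 probe sets whose values ranged over at least 1 on that scale, and 35 of these correlated above 0.95. Nlrx1 encodes a mitochondrial member of the NLR family, Slc7a9 a cystine transporter subunit, Prss16 a thymus serine protease, Hspa5 the ER chaperone BiP and Ndrg1 a hypoxia-responsive protein. Such a likeness is set mostly by the gap between tumors and parental cells. The signal of Nlrx1 was 88.6 to 117 in the tumors and 7.70 to 19.2 in the parental cells, and that of Epx 2614 to 4607 in the tumors and 9.21 to 9.34 in the parental cells.

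Over the 6 tumor arrays alone the closest were Rgs11, a regulator of G protein signalling (0.984), 2 probe sets of the actin-binding gene Cotl1 (0.976 and 0.974), the sphingomyelin synthase gene Sgms1 (0.973) and the vesicle GTPase gene Rab8b (0.973), out of 3228 probe sets compared. Another probe set of Cotl1 that was tested was not among the closest. Only probe sets whose values ranged over at least 1 on these 6 arrays were compared. The probe sets named above for Nlrx1, Epx, Slc7a9, Prss16, Hspa5 and Ndrg1 ranged over less and could not enter. That this list shared 0 genes with that over all 8 arrays therefore follows in large part from the filter. Rgs11 had a change of 0.04 ± 0.28 (SE) between tumors and parental cells, Cotl1 of 0.94 ± 0.29 and 1.43 ± 0.41, Sgms1 of -0.67 ± 0.31 and Rab8b of 0.09 ± 0.25, and none passed the test (adjusted p by limma 0.184 to 0.962). The arrays share their tumor in pairs, so the 6 points are not independent.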

How the data were processed

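RNA of 3 splenic tumors and of the parental cell line was measured on Affymetrix mouse arrays, 2 for each source. Each probe set has 1 deposited intensity, on a linear scale, made by the authors with MAS5 per the submitters' processing notes, and the sources used here give neither its version nor its settings. Trimmed by 2% at each end, every array had a mean of 150.06, so the arrays had been scaled alike, and an RNA class that takes more of 1 array lowers the rest. The median signal was 32.5 to 37.9. Duplicate arrays correlated at 0.953 to 0.973 across probe sets, which are not independent replicates, and a tumor array with a parental array at 0.897 to 0.958. Precision is limited by how few arrays there are. Actb, a control, had a change of 0.17 (adjusted p by limma 0.694), and Gapdh has no probe set of its own symbol alone.

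Symbols are those of the array's annotation, brought up to date with RefSeq (GRCm38.p6) through gene IDs. Of 22690 probe sets 20380 had 1 symbol, 691 several, 1555 none and 64 were controls, which were left out, and 20351 matched RefSeq by gene ID. Promoter sequences are those of RefSeq, and all 5 genes matched.

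The scale log2(signal + 16) understates changes at low signal. Probe sets above the 40th percentile of the array on at least 2 arrays were tested, which left 14893, with no further normalization. Each tumor entered as the mean of its duplicates (n = 3), set against the 2 parental arrays, by limma 3.58.1 in R 4.3.3, two-sided, with Benjamini-Hochberg adjustment over all probe sets tested at 0.05. Each tumor against parental cells, and differences among tumors, came from a model of the 8 arrays that gives every source its own mean. The fits were tested on simulated data.

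The deviation of an array from the mean of its source correlated between arrays of the same number, at 0.435 to 0.594 over the 6 pairs of sources, so the numbers in the labels pair the arrays, and a fit with the replicate number as a block was an alternative. The others were pseudocounts of 1 and 64, no filter or the 60th percentile, quantile normalization, median centring, 1 probe set a gene, leaving out samples, treating duplicates otherwise and a robust prior with a trend.

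For a gene with several probe sets, lists used the one with the highest mean. Named were all Schlafen probe sets, up to 4 genes with the lowest p of a list for the lists that bear on the family, the genes closest to Slfn4 by correlation and the chromosomal neighbours. Interferon response, interferon signalling, cell cycle brakes, proliferation, myeloid transcription factors and the markers of blood and spleen cell types made up the lists. The list of cell cycle brakes also holds drivers of the G1 phase. The family, the lists and the named genes were chosen with earlier results of these data known.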

Additional observations from a re-analysis of the deposited data

How the results depend on the processing

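Slfn2 stayed below 0 and did not pass in the 17 alternatives that gave a value (changes from -0.42 to -0.01, adjusted p by limma 0.424 to 0.995), and the filter at the 60th percentile gave none. The F test among tumors passed in no alternative run for Slfn4 (adjusted p 0.535 to 0.979), the shared probe set (0.39 to 0.905) or Slfn2 (0.417 to 0.952). The replicate number as a block gave the lowest of each range (0.535, 0.39 and 0.417) and an adjusted p of 0.789 for Slfn2 against parental cells, and it ended or made no call of a Schlafen probe set. It called 1952 probe sets, against 104 in the comparison of tumor means and 489 in the 8 arrays without it, and 8 interferon response genes, against 0 and 3.

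The 104 calls became 66 with 1 probe set a gene, 193 with the source as a random block, 45 with a pseudocount of 64, 22 with no filter, 5 on the first arrays and 12 on the second, and 9 to 94 with 1 sample left out, of which 16 without the first and 9 without the second parental array. With 1 parental array left, its spread was taken to be that of the tumors. Fewer samples enter the fits of single arrays and of left-out samples, and for the other changes the cause was not tested.

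The change of Slfn4 (5.59) was 7.01 with a pseudocount of 1, 4.12 with 64, 5.12 on the first arrays, 6.07 on the second and 5.26 to 5.93 with 1 sample left out. That of the shared probe set (3.19) was 4.40, 1.95, 2.81, 3.57 and 2.93 to 3.45 in the same order. Slfn1 (0.04) was 0.37, 0.01, 0.03, 0.05 and 0.02 to 0.06 in that order, 0.03 after quantile normalization and -0.07 after median centring. Slfn3 (-0.13) was -0.78 with a pseudocount of 1 and -0.21 to -0.07 with 1 sample left out. Slfn1 and Slfn3 lie below the 40th percentile on all 8 arrays, which limits what their signals can show.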
